A study of Mus musculus with 4 samples.

Results

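Genes of mature astrocyte function were followed in single nuclei of the developing mouse superior colliculus, a midbrain structure that receives visual input. They were taken by symbol from the deposited matrix and are 10 of its 31053 genes: Slc1a2, Slc1a3, Gja1, Gjb6, Aqp4, Glul, Aldh1l1, Etnppl, Gfap and Myoc. Nuclei came from C57BL/6J mice at embryonic day 19 (E19) and postnatal days 4, 8 and 21 (P4, P8, P21), with no treatment and no altered gene named in the labels. Each stage was 1 library of tissue pooled from several animals, so animals could not be told apart. The deposited annotation gave 939 astrocyte nuclei among 9724 nuclei. In the order of the stages they numbered 196, 223, 233 and 287. It divided them into 750 protoplasmic astrocytes (155, 175, 188 and 232 by stage) and 189 fibrous astrocytes (41, 48, 45 and 55).

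Astrocytes clear glutamate and potassium from around synapses, pass metabolites through gap junctions, and line blood vessels with endfeet that carry water channels. Protoplasmic astrocytes belong to grey matter, and fibrous astrocytes, which are rich in glial fibrillary acidic protein, to white matter and the brain surface. Slc1a2 (GLT-1) and Slc1a3 (GLAST) encode the glutamate transporters of astrocytes, and Glul encodes glutamine synthetase, which turns the glutamate taken up into glutamine. Gja1 (connexin 43) and Gjb6 (connexin 30) form astrocyte gap junctions, and Aqp4 is the water channel of endfeet. Aldh1l1 is an enzyme of folate metabolism, Etnppl breaks down phosphoethanolamine, Gfap is an intermediate filament protein, and Myoc encodes the secreted protein myocilin.

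Levels are unique molecular identifiers (UMIs, single captured RNA molecules) of a gene per 1000000 UMIs (CPM) summed over the nuclei of a class or subtype in 1 library. Ranges in parentheses are 95% intervals for counting error only: exact Poisson intervals for a level, conditional binomial intervals for a fold and Clopper-Pearson intervals for a share. With 1 library per stage there was no replicate, so every difference between stages is between 2 libraries, and stage cannot be told apart from library, pool of animals or capture. Xist RNA, a mark of female cells, had a UMI in 0.967% of E19 nuclei, 46.0% of P4 nuclei, 40.7% of P8 nuclei and 68.1% of P21 nuclei, and the part of this in any result was not tested. The libraries held 19277512 to 31325079 UMIs, with medians of 6828 to 11745 per nucleus. Astrocyte nuclei had medians of 4329 to 5525 UMIs and neurons 7279 to 16388. At P21 the median was 5810.5 UMIs in protoplasmic and 3882 in fibrous nuclei. Shares of nuclei with a UMI and counts of gene pairs are at full depth unless stated, and depth affects them. Across the libraries 18 nuclei shared a barcode with a nucleus of another library, 1 of them an astrocyte.

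The astrocyte label was checked with 9 other astrocyte markers (Slc4a4, Gpc5, Ntsr2, Fgfr3, Slc7a10, S1pr1, Acsbg1, Mlc1 and Sox9), all of which were detected in both subtypes in all 4 libraries. All 9 were also detected in neurons of each library, so only their levels can tell the classes apart. Their summed level in protoplasmic astrocytes was 3004, 4490, 6876 and 16895 CPM from E19 to P21, and in fibrous astrocytes 1601, 917, 2656 and 3665 CPM. Neurons held 604, 830, 772 and 849 CPM, so at P4 the fibrous sum lay little above that of neurons. At E19 the fibrous label was not borne out by Gfap or Myoc, of which its nuclei had 1 and 0 UMIs. At P4 the fibrous sum held 2672 CPM of 6 ependymal or choroid plexus markers, against 172 CPM in the protoplasmic sum of that library. Of its 48 nuclei, 12 had at least 2 UMIs of Foxj1, Folr1, Kl, Ccdc153 and Tmem212 together, and 500 of its 535 UMIs of Ttr, the transthyretin gene of choroid plexus, lay in 6 nuclei. The 12 marked nuclei had a median of 1 of the 10 genes, and the other nuclei a median of 3. The 12 held 342 of the Ttr UMIs, and 2 of the 6 nuclei rich in Ttr were not among them, with 163 UMIs of Ttr. Values of fibrous astrocytes at P4 are given with and without the 12 marked nuclei where a result rests on them. With these 2 left out too, P4 fibrous nuclei held 374 CPM of Slc1a3, 275 of Aqp4, 262 of Gfap, 164 of Aldh1l1 and 78.7 of Gja1. At P8 and P21 fibrous nuclei held 1975 and 1641 CPM of 6 oligodendrocyte precursor markers, mostly Tnr (1507 and 1544 CPM), while Sox10 of that list was at 0.

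The promoters of 4 genes are shown because these genes mark the ends of the contrast between the subtypes at P21: Gfap and Myoc were higher in fibrous astrocytes, and Glul and Etnppl in protoplasmic astrocytes. They come from RefSeq on GRCm38.p6 and run 5′ to 3′ from 250 bases before a start site into the first 20 bases from it. Capitals mark the letters TTGGC, a site of nuclear factor I proteins, or TTCNNNGAA, the element of STAT proteins, read on either strand.
Gfap chr11:102897181-102897450 (- strand): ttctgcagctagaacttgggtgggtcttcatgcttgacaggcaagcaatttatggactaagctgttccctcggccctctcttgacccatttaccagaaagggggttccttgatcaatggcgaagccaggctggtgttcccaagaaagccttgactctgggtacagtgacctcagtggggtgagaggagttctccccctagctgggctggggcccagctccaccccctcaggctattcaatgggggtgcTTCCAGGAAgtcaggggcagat
Myoc chr1:162638900-162639169 (+ strand): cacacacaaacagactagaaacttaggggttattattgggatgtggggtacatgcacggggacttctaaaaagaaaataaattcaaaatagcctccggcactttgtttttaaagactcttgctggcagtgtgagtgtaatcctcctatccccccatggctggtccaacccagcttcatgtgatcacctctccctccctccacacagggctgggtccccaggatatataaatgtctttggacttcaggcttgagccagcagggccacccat
Glul chr1:153899679-153899948 (+ strand): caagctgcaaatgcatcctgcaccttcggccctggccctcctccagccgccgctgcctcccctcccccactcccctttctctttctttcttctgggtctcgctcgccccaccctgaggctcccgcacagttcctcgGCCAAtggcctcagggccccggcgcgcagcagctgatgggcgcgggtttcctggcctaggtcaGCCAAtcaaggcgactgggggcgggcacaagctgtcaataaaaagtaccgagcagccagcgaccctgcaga
Etnppl chr3:130617325-130617594 (+ strand): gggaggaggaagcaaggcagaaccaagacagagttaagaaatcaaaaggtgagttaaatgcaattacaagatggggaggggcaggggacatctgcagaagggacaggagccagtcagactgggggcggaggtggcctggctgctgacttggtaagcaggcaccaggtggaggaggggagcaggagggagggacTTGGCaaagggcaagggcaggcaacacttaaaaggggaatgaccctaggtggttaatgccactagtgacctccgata
In the full windows, which reach 50 bases past the start site, 9 of the 10 genes matched the RefSeq table with 10 entries, Etnppl having 2. TTGGC, which overlaps no TTCNNNGAA match in these entries, lay in 3 of the 10 entries (Glul, Slc1a2 and 1 of the Etnppl entries), and in 46.7% of all 32851 promoter windows. TTCNNNGAA lay in 2 of the 10 (Gfap and Slc1a3), and in 8.30% of all windows. The Myoc window held neither. The Etnppl entry shown is the one with TTGGC, and its start site is chr3:130617575. The other Etnppl entry has its start site at chr3:130617448, where the annotated gene begins, and held neither. A match describes the letters of the window and is no measured site.

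The deposited gene identifiers were placed with GENCODE M21 on GRCm38 (mm10). Slc1a2 (ENSMUSG00000005089) spans chr2:102658659-102790784, Slc1a3 (ENSMUSG00000005360) chr15:8634124-8710764, and Glul (ENSMUSG00000026473) chr1:153899944-153909723. Gja1 (ENSMUSG00000050953) spans chr10:56377330-56402513 and Gjb6 (ENSMUSG00000040055) chr14:57123303-57133611. Aqp4 (ENSMUSG00000024411) lies on chromosome 18, Aldh1l1 (ENSMUSG00000030088) spans chr6:90486427-90600203, and Etnppl (ENSMUSG00000019232) chr3:130617448-130637521. Gfap (ENSMUSG00000020932) spans chr11:102887336-102900912 and Myoc (ENSMUSG00000026697) chr1:162639155-162649693. Opposite-strand neighbours overlap 6 of the 10, and same-strand neighbours 3. The partner with most UMIs in P21 astrocytes was Gm26668, opposite Gfap, with 21 UMIs against 464 of Gfap.

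From E19 to P21, 8 of the 10 genes were at least 2-fold higher in all astrocytes together, a change met by 8.6% of the 8577 genes that reached 20 CPM at either stage. None was at least 2-fold lower, against 18.2% of those genes. All 10 passed the 20 CPM minimum, 4 of them (Gjb6, Etnppl, Gfap and Myoc) only through P21. Their median log2 ratio was 2.62, against -0.24 over all genes past the minimum, on log2 values with 5 CPM added, which understates the change of low genes. The 10 genes were selected on their known roles and on their UMI levels by stage and subtype in these same libraries, so these counts describe the choice and support nothing further. Between neighbouring stages, 1 of the 10 was at least 2-fold higher at P4 than at E19, against 3.58% of the genes past the minimum there. From P4 to P8 it was 3 (0.839%), and from P8 to P21 5 (4.94%). Of the 10, 7 passed the minimum in the first step, 8 in the second and all 10 in the third. Gfap made the first step, Aqp4, Gfap and Myoc the second, and Slc1a2, Gja1, Gjb6, Glul and Etnppl the third. Of these, Gfap in the first step, Myoc in the second, and Gjb6 and Etnppl in the third passed the minimum only through the later stage. The step counts too describe the choice and support nothing further. Slc1a3 and Aldh1l1 passed the fold in no step. Scaling by the median of ratios in place of CPM moved the median log2 ratio of all genes from -0.24 to 0.03, and raised the higher share of all called genes from 32.1% (738 higher, 1561 lower) to 51.0% (1092 higher, 1049 lower). From E19 to P21 the counts for the 10 genes were 8 and 0 with either scaling.

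**Figure D1:**
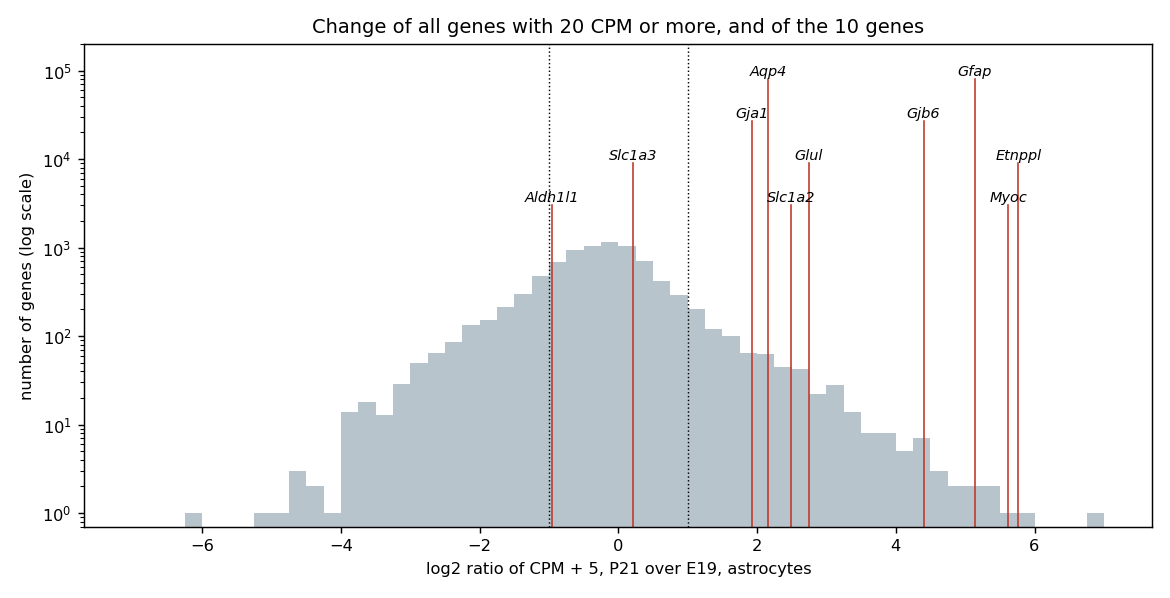
Distribution of the log2 ratio from E19 to P21 in astrocytes (x axis, 5 CPM added to both levels) over the 8577 genes with at least 20 CPM at either stage (y axis, number of genes); lines mark the 10 genes. Lines of 8 genes lie beyond 1, Slc1a3 lies at 0.21 and Aldh1l1 at -0.95.

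In all astrocytes the E19 library held 595 CPM of Slc1a2 (546 to 647), the P4 library 719 (668 to 773), the P8 library 1080 (1023 to 1139) and the P21 library 3377 (3288 to 3468). The 4 libraries stood in the order of age without overlapping intervals, and the P21 level was 5.68-fold that of E19 (5.1995 to 6.21). Most of this lay in the last step, 3.13-fold from P8 to P21 (2.95 to 3.32). In protoplasmic astrocytes the levels were 678, 857, 1200.0 and 3815 CPM, and in fibrous astrocytes 273, 239, 522 and 675 CPM. Slc1a2 was thus higher in protoplasmic nuclei in every library, by 2.49-fold at E19 (1.87 to 3.37) and 5.65-fold at P21 (4.81 to 6.68). At P21 all 232 protoplasmic nuclei had at least 1 UMI of it (98.4 to 100%), and 83.6% of fibrous nuclei did (71.2 to 92.2).

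Slc1a3, the other glutamate transporter, had the log2 ratio nearest to 0 among the 10 genes between E19 and P21, at 0.21. Astrocytes of E19 held 1003 CPM of it (939.6 to 1069.7), those of P4 754 (701 to 809), those of P8 1043 (986 to 1101) and those of P21 1162 (1111 to 1216). The P4 library was the lowest, and P21 was 1.16-fold E19 (1.07 to 1.26). Protoplasmic nuclei held 1096, 893, 1127 and 1279 CPM and fibrous nuclei 646, 270, 649 and 441 CPM. Fibrous astrocytes were lower in all 4 libraries. From P8 to P21 the fibrous level went down (0.679-fold, 0.521 to 0.883) and the protoplasmic level up (1.14-fold, 1.05 to 1.22). Without the 12 marked nuclei the fibrous level at P4 was 345 CPM in place of 270.

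Glul was alike in the E19 and P4 libraries, with 65.9 (50.4 to 84.6) and 66.3 CPM (51.4 to 84.3). It stood higher at P8 with 114 CPM (96.4 to 135) and highest at P21 with 469.9 CPM (437 to 504). The P21 level was 7.13-fold E19 (5.49 to 9.42). Protoplasmic astrocytes went from 66.6 CPM at E19 through 75.2 and 132 to 542 at P21, and fibrous astrocytes held 12, 8, 7 and 5 UMIs, or 63.0, 35.5, 31.8 and 22.0 CPM. At E19 the subtypes did not differ beyond counting error (1.06-fold, 0.554 to 2.18), and at P21 the protoplasmic level was 24.6-fold the fibrous one (10.5 to 76.0). Among P21 protoplasmic nuclei 203 had UMIs of both Slc1a2 and Glul, 29 of Slc1a2 alone and none of Glul alone. Among the 55 fibrous nuclei 4 had both and 42 had Slc1a2 alone, so most fibrous nuclei held the transporter's RNA without a detected UMI of the enzyme.

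The gap junction genes followed different courses. For Gja1 the E19 and P4 libraries overlapped, with 136 (113 to 162) and 138 CPM (116 to 163). Its level was 202 CPM in the P8 library (177 to 228) and 531 CPM in the P21 library (496 to 567), and P21 was 3.90-fold E19 (3.23 to 4.74). Gja1 was the member most alike in the subtypes late in the series: at P21 534 CPM in protoplasmic and 512 CPM in fibrous nuclei (1.04-fold, 0.857 to 1.28), with a UMI in 91.8% and 87.3% of nuclei. Only at P4 did its intervals separate the subtypes, with 158 CPM in protoplasmic and 66.5 CPM in fibrous nuclei. Without the marked nuclei the fibrous level there was 72.7 CPM.

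Astrocytes held only 4, 3 and 10 UMIs of Gjb6 in the libraries of E19, P4 and P8, and 312 in that of P21. In CPM these are 4.32 (1.18 to 11.06), 2.97 (0.613 to 8.68), 8.06 (3.87 to 14.8) and 192 (171 to 214). The first 3 libraries overlapped and P21 stood apart, 23.8-fold above P8 (12.8 to 50.1). At P21 protoplasmic astrocytes held 205 CPM and fibrous astrocytes 110 CPM, 1.86-fold (1.23 to 2.92). Of the protoplasmic nuclei at P21, 144 had UMIs of both connexin genes, 69 of Gja1 alone, 11 of Gjb6 alone and 8 of neither.

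Aqp4 went from 159 CPM in E19 astrocytes (134 to 187) to 295 in P4 (263 to 331), 613 in P8 (569.99 to 658) and 728 in P21 astrocytes (687 to 771). The libraries stood in the order of age without overlap, and P21 was 4.59-fold E19 (3.86 to 5.48). Protoplasmic nuclei held 158, 321, 463 and 547 CPM, and fibrous nuclei 163, 204, 1308 and 1848 CPM. The subtypes overlapped at E19 (1.03-fold fibrous over protoplasmic, 0.671 to 1.55). Fibrous nuclei were lower at P4 (0.634-fold, 0.453 to 0.871), 2.83-fold higher at P8 (2.43 to 3.28) and 3.38-fold higher at P21 (2.99 to 3.81). Without the 12 marked nuclei the P4 fibrous level was 254 CPM, still below the protoplasmic one. The share of nuclei with a UMI at P21 was close in the subtypes, 90.9% (86.5 to 94.3) and 92.7% (82.4 to 98.0).

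Aldh1l1 was the only one of the 10 with a lower level at P21 than at E19 in all astrocytes. The E19 library held 316 CPM (281 to 355), the P4 library 254.5 (224 to 288), the P8 library 267 (239 to 297) and the P21 library 161 (142 to 182). The P21 library was the lowest and did not overlap the others, at 0.509-fold of E19 (0.430 to 0.604). Protoplasmic levels of 311, 292, 260 and 164 CPM and fibrous levels of 336, 124, 300 and 146 CPM overlapped at E19, P8 and P21 and separated at P4. Without the marked nuclei the P4 fibrous level was 157 CPM. Etnppl had 0 UMIs in the astrocytes of the first 3 libraries, which by a limit of 3 counts allows up to 3.24, 2.97 and 2.42 CPM in the order of age. At P21 it had 435 UMIs, 268 CPM (243 to 294), at least 110.6-fold higher than at P8 against that limit. Of these UMIs 430 lay in protoplasmic nuclei (307 CPM) and 5 in fibrous nuclei (22.0 CPM), a 13.9-fold difference (5.93 to 43.1). A UMI was seen in 59.1% of protoplasmic nuclei at P21 (52.4 to 65.4), and the highest nucleus held 20 UMIs.

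Gfap had 3 UMIs in E19 astrocytes (3.24 CPM, 0.668 to 9.47) and postnatal levels of 130 (108 to 154), 359.6 (327 to 395) and 285 CPM (259.99 to 313). All postnatal libraries lay above E19, and P8 was the highest. In protoplasmic nuclei the levels were 2.72, 116, 70.6 and 63.6 CPM, so that the P4 library was the highest. In fibrous nuclei they were 5.25, 177, 1698 and 1654 CPM, 24.1-fold the protoplasmic level at P8 (18.7 to 31.4) and 26.0-fold at P21 (20.6 to 33.1). At P4 the fibrous sum was 1.53-fold the protoplasmic one (1.03 to 2.24), with 12 of its 40 UMIs in 1 nucleus. None of those 40 UMIs lay in the marked nuclei, without which the level was 242 CPM. A UMI of Gfap was found in 90.9% of fibrous nuclei at P21 (80.1 to 96.98) and 22.0% of protoplasmic nuclei (16.8 to 27.9).

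Myoc came later than Gfap. Astrocytes had 2 UMIs of it in the E19 library (2.16 CPM, 0.262 to 7.80) and 7 in the P4 library (6.93 CPM, 2.79 to 14.3). There were 219 in the P8 library (177 CPM, 154 to 202) and 565 in the P21 library (347 CPM, 319 to 377). E19 and P4 overlapped, and each later library lay above the one before. From P8 on fibrous nuclei held nearly all of it, 205 of 219 and 553 of 565 UMIs. Fibrous levels were 0, 4.43, 931 and 2439 CPM from E19 to P21, against 2.72, 7.65, 13.7 and 8.58 CPM in protoplasmic nuclei. At P21 the fibrous level was 284-fold the protoplasmic one (161 to 554), the largest ratio between the subtypes among the 10 genes and 4 libraries. Between P8 and P21 fibrous Myoc was 2.62-fold higher (2.23 to 3.09) while fibrous Gfap stayed within counting error (0.974-fold, 0.842 to 1.13). At P8 a single fibrous nucleus held 38 of the 205 UMIs. In fibrous nuclei at P8, 26 of 45 had UMIs of both genes, 14 of Gfap alone, none of Myoc alone and 5 of neither. At P21 the same counts were 47, 3, 2 and 3 of 55.

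**Figure D2:**
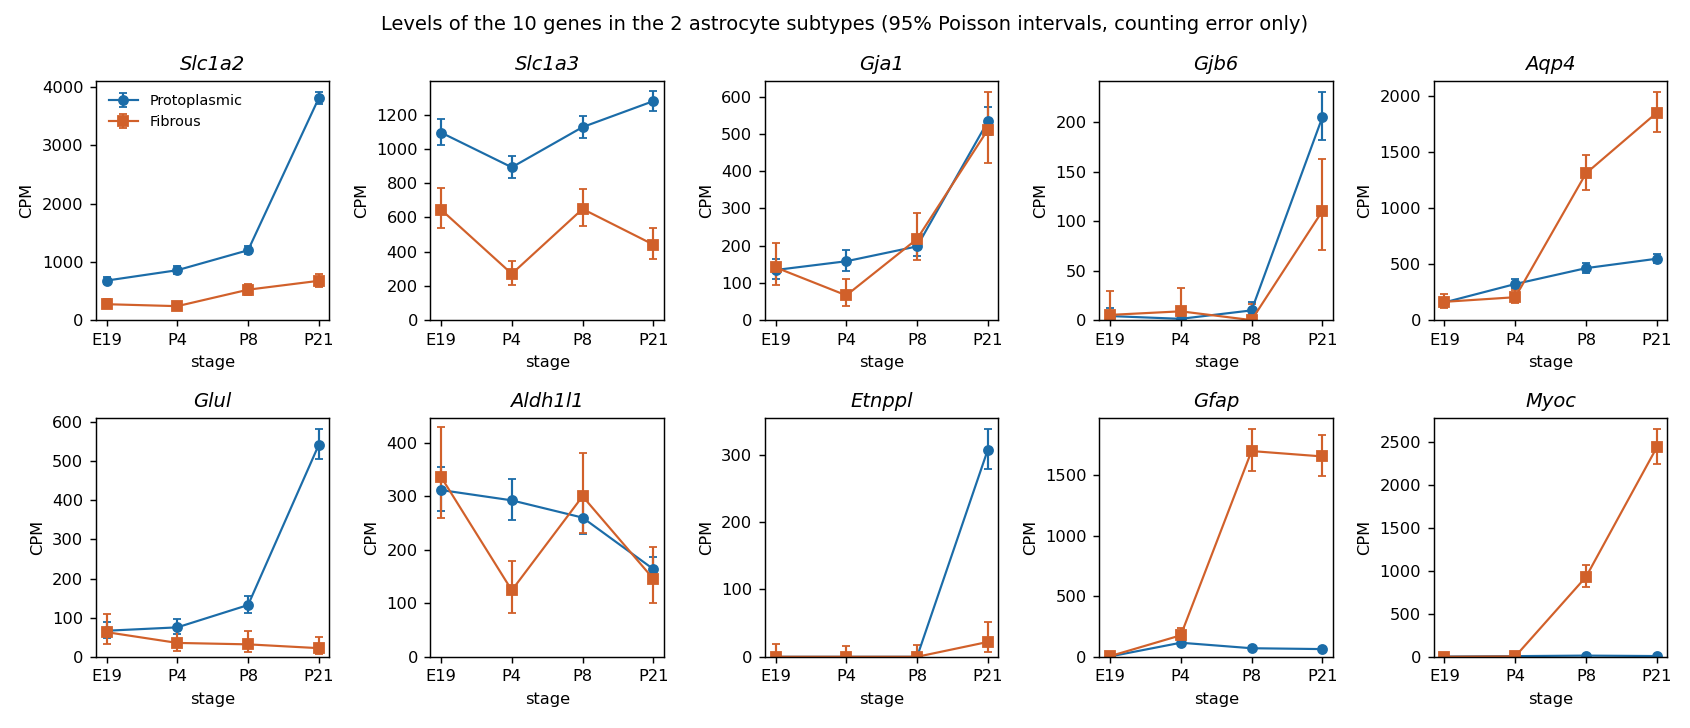
Level of each of the 10 genes (y axis, CPM) at E19, P4, P8 and P21 (x axis) in protoplasmic and in fibrous astrocytes, with bars for the 95% exact Poisson interval of 1 library each. At P21 Gfap, Myoc and Aqp4 lie higher in fibrous nuclei, and Slc1a2, Slc1a3, Gjb6, Glul and Etnppl in protoplasmic nuclei, with Slc1a2 and Slc1a3 so at all 4 stages.

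Taken alone, protoplasmic astrocytes had 7 genes at least 2-fold higher at P21 than at E19 (8.5% of the 8505 genes past the minimum). None was lower (19.8%), and Myoc was under the minimum. Gjb6, Etnppl and Gfap passed the minimum there only through P21. Fibrous astrocytes had 7 higher (15.2%) and 2 lower (21.3%), Glul and Aldh1l1. In these nuclei Gjb6, Etnppl, Gfap and Myoc passed it only through P21. Etnppl is among the 7 on 0 and 5 UMIs, which against the limit of 3 counts is only at least 1.40-fold higher. Glul is among the lower on 12 and 5 UMIs, with an interval that includes no change (0.350-fold, 0.0966 to 1.07). Within the P21 library 3 of the genes, Gfap, Myoc and Aqp4, were at least 2-fold higher in fibrous nuclei (16.3%) and 4, Slc1a2, Slc1a3, Glul and Etnppl, in protoplasmic nuclei (7.5%). Myoc passed the minimum in this contrast only through fibrous nuclei. Over all 4 libraries, 3 of the 10 genes were higher in protoplasmic than in fibrous astrocytes each time (Slc1a2, Slc1a3 and Glul), which 9.43% of 10641 genes with at least 20 CPM in 1 of the 8 sums also were. Gfap was the 1 gene higher in fibrous astrocytes each time, as were 15.4% of those genes. The margins were not all beyond counting error: Gfap rested on 2 and 1 UMIs at E19, and Glul overlapped there. At P4 the Glul margin was narrow, on 59 protoplasmic and 8 fibrous UMIs (2.12-fold, 1.01 to 5.14). Without the 12 marked nuclei the fibrous Glul level at P4 was 48.4 CPM in place of 35.5, against 75.2 in protoplasmic nuclei. Leaving out the P4 library, 2 genes were higher in fibrous astrocytes each time, Gfap and Aqp4. The subtypes were named by the authors from clusters of these same nuclei, so the differences between them are described and not tested. The 10 genes were chosen partly on their levels by stage and subtype here, so these counts describe the choice and support nothing further.

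Set against the other classes of the tissue, 4 of the 10 genes were highest in astrocytes in all 4 libraries among classes with at least 20 nuclei: Slc1a2, Aqp4, Aldh1l1 and Gfap. The same held for 2.27% of 13237 genes. The 10 genes were chosen for known astrocyte roles and on their levels in these libraries, so this count describes the choice and supports nothing further. None of the 4 was at least 2-fold above every other class in each library, with 5 CPM added. For Gfap the E19 level in astrocytes was 3 UMIs. Etnppl and Myoc missed this through stages at which astrocytes had 0 to 7 of their UMIs, and Slc1a3, Gja1, Gjb6 and Glul through other classes. Dividing cells stood next to astrocytes at E19, with 453 CPM of Slc1a2 (367 to 553), 141 of Aqp4 (95.4 to 202) and 245 of Aldh1l1 (183 to 321). The Aqp4 and Aldh1l1 intervals there overlapped those of astrocytes. At P8 dividing cells lay clearly lower, at 260 CPM of Slc1a2 (199 to 335), 139 of Aqp4 (95.03 to 196) and 91.2 of Aldh1l1 (56.4 to 139).

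Vascular leptomeningeal cells, which form the brain's covering and the sheath of larger vessels, shared Slc1a3, Gja1 and Gjb6 with astrocytes. Their Slc1a3 levels were 2155 (1965 to 2358), 2069 (1944 to 2200.2), 2348 (2213 to 2489) and 1053 CPM (988 to 1121) in the order of age. It exceeded the astrocyte level in the first 3 libraries, and at P21 the intervals of the classes overlapped. For Gja1 these cells went the other way from astrocytes, from 982 CPM at E19 (855 to 1122) through 585 and 486 to 249 at P21 (217 to 283). Gjb6 was higher in these cells than in astrocytes in all 4 libraries, at 141, 175, 229 and 303 CPM. At E19, P4 and P8 their Gjb6 intervals started at 95.8, 140 and 188 CPM, far above the astrocyte levels of those libraries. Epithelial cells held 672 CPM of Gja1 at P8 (565 to 793) and 597 at P21 (509 to 695), the latter overlapping astrocytes, and 178 CPM of Gjb6 at P21 (132 to 236), which also overlapped.

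Before P21 another class stood at or above astrocytes for Glul. Vascular leptomeningeal cells held 155 CPM at E19 (107 to 216), endothelial cells 279 at P4 (215 to 357) and microglia 119 at P8 (54.2 to 225). Microglia and astrocytes overlapped at P8. Endothelial cells, with 15 nuclei at P8 and 12 at P21, were too few to be ranked at these stages. At P21 astrocytes were highest at 470 CPM, followed by vascular leptomeningeal cells at 287 (253 to 323), microglia at 198 (124 to 300) and oligodendrocyte lineage cells at 113 (100 to 128). The microglia interval overlapped both of its neighbours in this order. Within the oligodendrocyte lineage the 187 myelinating oligodendrocytes of P21 held 162 CPM of Glul (143 to 183), 113 of Slc1a3 (96.9 to 131) and 38.9 of Slc1a2 (29.8 to 49.99). For Etnppl and Myoc at P21 microglia came next after astrocytes, with 1 UMI of Etnppl (9.003 CPM) and 6 of Myoc (54.0 CPM) in 33 nuclei.

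**Figure D3:**
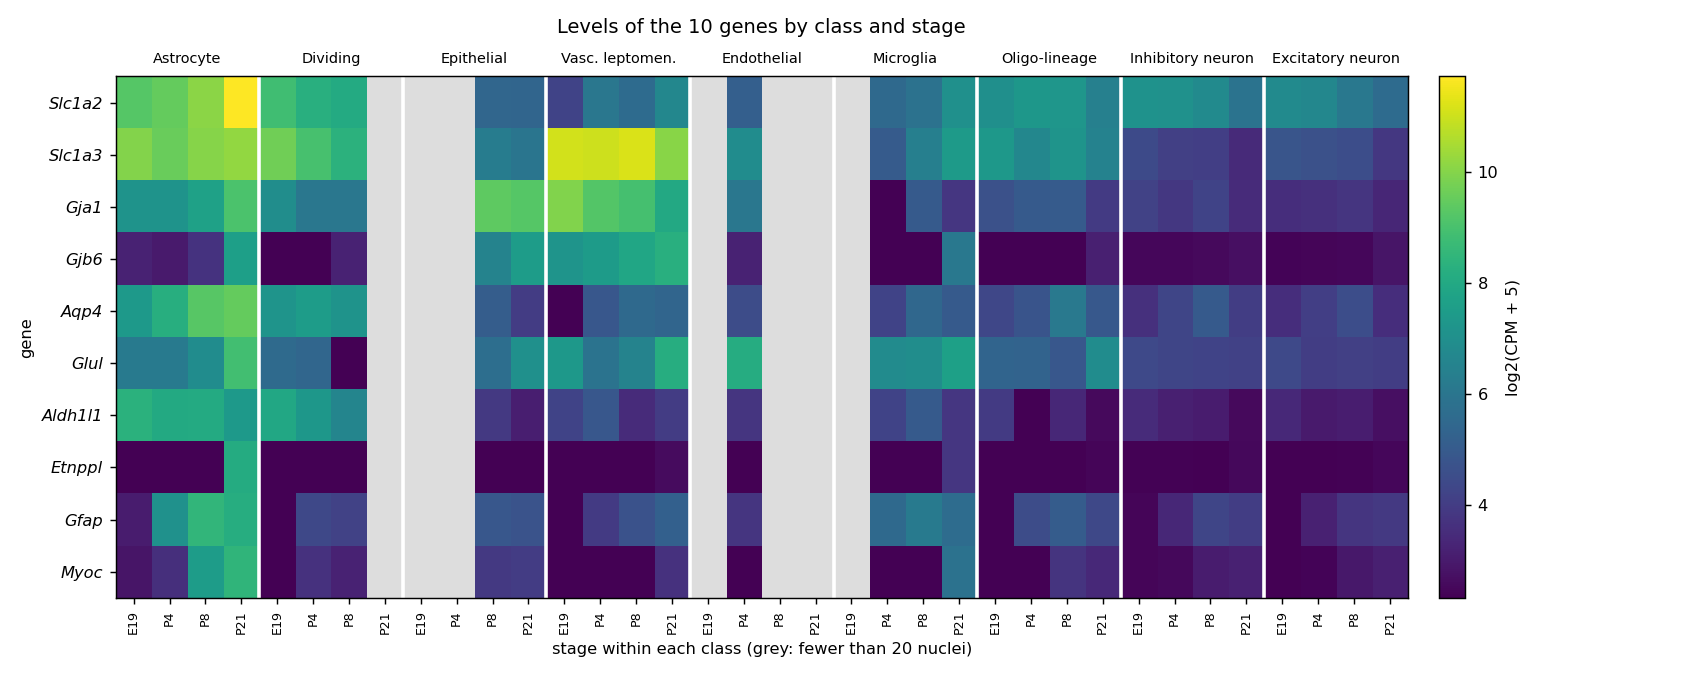
Level of the 10 genes (rows) in each class by stage (columns), as a colour scale of log2(CPM + 5), with classes of fewer than 20 nuclei in grey. Slc1a2, Aqp4, Aldh1l1 and Gfap are highest in the astrocyte columns within each stage, and vascular leptomeningeal columns are bright for Slc1a3, Gja1 and Gjb6.

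Neurons give the level at which these genes appear in nuclei that should lack most of them. As a percent of the astrocyte level, neuron Slc1a2 went in the order of age from 19.8 through 14.9 and 7.75 to 1.44. The percent for Glul went the same way, from 24.6 through 18.6 and 11.05 to 2.54. The neuron level of Glul itself changed little, at 16.2, 12.3, 12.6 and 11.9 CPM, while astrocytes held 65.9 CPM at E19 and 470 at P21. Slc1a3 was at 2.05, 2.33, 1.49 and 0.667%, and Aldh1l1 at 1.84, 1.29, 1.23 and 0.790%. Aqp4 was at 4.29, 4.27, 3.63 and 1.19%, Gja1 at 6.55, 5.73, 5.36 and 1.05%, and Gfap at 3.40, 3.15 and 3.68% from P4 on. After thinning to equal depth, 94.1% of astrocyte and 9.56% of neuron nuclei had a UMI of Slc1a2 at P21, against 96.9% and 44.9% before it. The percents of level differed between genes within a library, from 0.231 for Etnppl to 3.68 for Gfap at P21.

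Neuron Slc1a2 itself stood at 118 (113 to 123), 107 (103 to 111), 83.6 (80.04 to 87.4) and 48.6 CPM (45.9 to 51.3) from the youngest to the oldest library. It was lower in each later library, while astrocyte Slc1a2 was higher. Among neuron subtypes with at least 20 nuclei it ranged at E19 from 41.1 CPM in EN9, an excitatory subtype, to 345 in the inhibitory subtype IN4 (286 to 413), around a median of 113. IN4 was again the highest at P4 (262 CPM) and P21 (104 CPM). Slc1a3 was highest in EN7 at E19 (286 CPM, 230 to 352) and in EN6 at P4, P8 and P21 (93.4, 102 and 47.9 CPM), where the medians over subtypes were 13.2, 10.5 and 4.52 CPM.

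At P21 a single nucleus labelled EN11 held 244143 UMIs in all, and 9 of the 10 genes. It had 110 of the 1258 Slc1a2 UMIs of P21 neurons, 24 of Glul, 21 of Slc1a3 and 17 of Aqp4, whereas the next neuron had 17 of Slc1a2. Without it neuron Slc1a2 at P21 was 44.7 CPM, 1.32% of the astrocyte level.

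**Figure D4:**
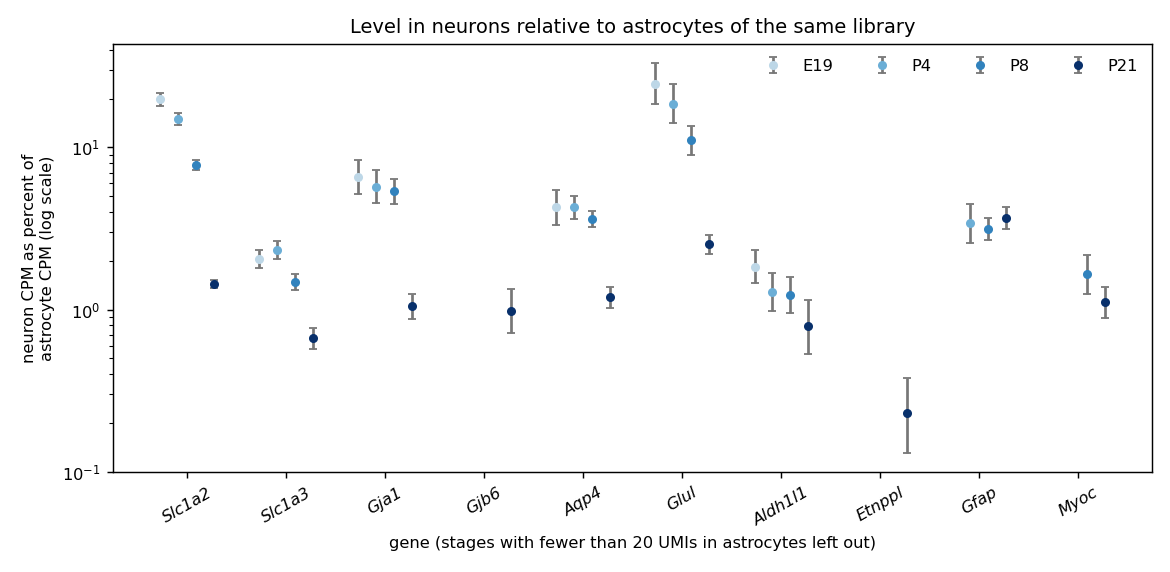
Level in neurons as a percent of the level in astrocytes of the same library (y axis, log scale) for each gene (x axis) at the stages with at least 20 astrocyte UMIs, with bars for the 95% interval from counting error. Slc1a2 and Glul start at 19.8 and 24.6% at E19 and end at 1.44 and 2.54% at P21.

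To count genes per nucleus at equal depth, every nucleus was thinned to 2300 UMIs, and none was left out. Protoplasmic nuclei then held on average 2.67 (SD 1.05), 2.92, 3.46 and 5.10 (SD 1.27) of the 10 genes in the order of age. Fibrous nuclei held 2.49 (SD 1.12), 1.54, 4.47 and 5.15 (SD 1.47), and neurons 0.24 to 0.37. At least 5 of the genes were found in 1.29, 9.71, 21.3 and 65.5% of protoplasmic nuclei by stage, and in 4.88, 0, 55.6 and 76.4% of fibrous nuclei. The fibrous P4 nuclei stood apart, with none of the 10 genes in 15 of 48. These 15 include 6 of the 12 nuclei with ependymal or choroid markers, and 9 of the other 36 nuclei had none. The mean over those 36 was 1.81 genes, still below the fibrous mean of each other library. Before thinning the median nucleus held 3, 4, 5 and 7 of the genes in protoplasmic and 3, 2, 6 and 6 in fibrous astrocytes.

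**Figure D5:**
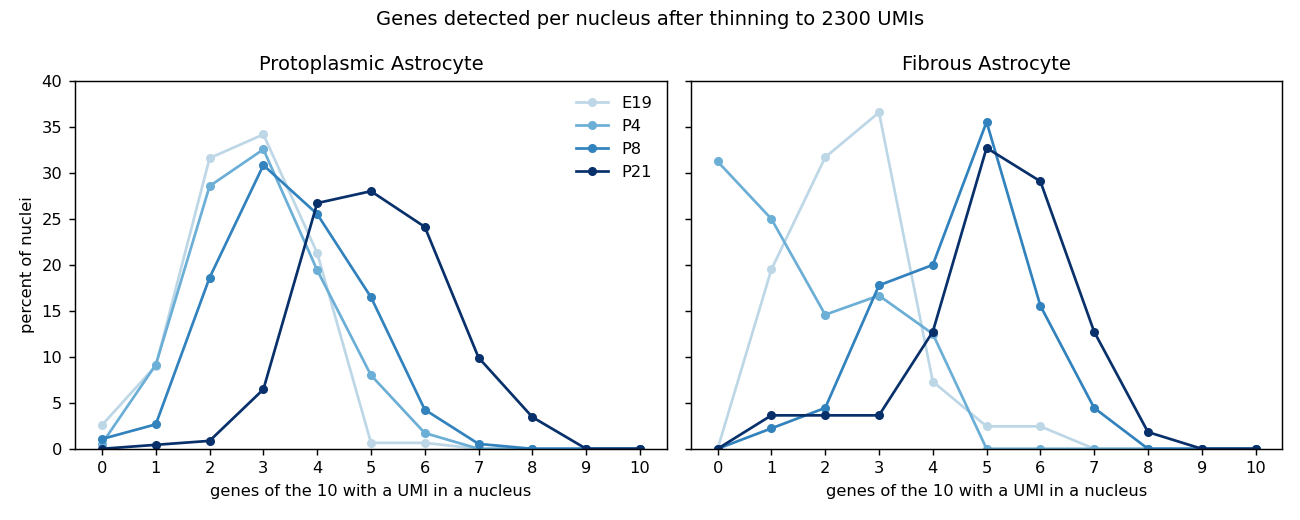
Percent of nuclei (y axis) by the number of the 10 genes detected after thinning to 2300 UMIs (x axis), for each stage in protoplasmic and fibrous astrocytes. P21 nuclei centre on 5 genes in both subtypes, and 15 of the 48 fibrous nuclei of P4 hold none, 6 of them among the 12 with ependymal or choroid markers.

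A list of 76 further genes of astrocyte work put these 10 in context. In all astrocytes from E19 to P21, 28 of the 65 past the minimum were at least 2-fold higher and 7 lower. Of the 8577 genes past the minimum 8.6% and 18.2% were. Some of the higher genes, Gpr37l1 and C4b among them, reached 20 CPM only through P21. Of the lower genes, Vim, Nes, Gjc1 and Panx1 did so only through E19. The list was chosen with earlier results of these data known, so its counts are a description. The median log2 ratio of those 65 was 0.71. Of 14 water, ion and endfoot genes 10 were higher and none lower, with Gpr37l1, an astrocyte receptor, at 12.96 and 325 CPM and Lama2, a laminin chain, at 89.6 and 837 CPM at the 2 stages. Of 12 transport genes 4 were higher and none lower, led by the cystine and glutamate exchanger Slc7a11 (90.7 and 565 CPM) and the GABA transporter Slc6a11 (767 and 2052 CPM).

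Metabolism genes were mixed, with 5 of 17 higher and 1 lower. The phosphorylase kinase subunit Phkg1 went from 32.4 to 597 CPM and Mfge8, a secreted phagocytosis factor, from 432 to 80.0 CPM. Of the gap junction genes only 3 of 8 reached the minimum besides the members: the junction scaffold Tjp1 was higher (121 and 553 CPM), and Gjc1 (54.0 and 3.69 CPM) and Panx1 (41.0 and 3.08 CPM) were lower. Filament and fibrous genes split, 3 of 6 higher and 2 lower. The complement gene C4b was at 1.08 and 79.3 CPM and angiotensinogen, Agt, at 34.6 and 432 CPM, whereas the immature filament genes Vim (95.01 and 16.6 CPM) and Nes (21.6 and 0.615 CPM) were lower.

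At P21 C4b followed the fibrous pattern, with 467 CPM in fibrous and 16.4 in protoplasmic nuclei, and Slc38a1, a glutamine transporter named here after its values were seen, held 2099 and 118 CPM. Agt did not separate in this way (362 and 443 CPM). Of the receptor genes 5 of 13 were higher and 2 lower. Ntsr2 was at 20.5 and 530 CPM and the secreted protease Htra1 at 20.5 and 374 CPM, and the glutamate receptor genes Grm3 (1624 and 801 CPM) and Grm5 (878 and 395 CPM) were the lower ones. Radial glia and progenitor markers, 8 genes also present in these nuclei, summed to 4009 CPM at E19 and 424 at P21. Oligodendrocyte markers summed to 39.9 CPM in astrocytes at E19 and 798 at P21, while neurons of P21 held 313 CPM, and their part in the results was not tested.

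Genes whose levels followed a member most closely were ranked by Pearson's r of log2(CPM + 5) over the 8 sums of subtype and stage, among 6281 genes with at least 50 CPM in 1 sum. The 2 sums of a library share it, and the sums differ in depth, so r is a description. Closest to Slc1a2 was Kmt2c (0.98), to Slc1a3 Adgrb3 (0.99), to Gja1 Slc25a33 (0.98) and to Gjb6 Psd2 (0.96). Closest to Aqp4 was the Notch regulator Dtx1 (0.99), to Glul Arrb1 (0.94), to Aldh1l1 Cox10 (0.98) and to Etnppl Extl1 (0.99). Closest to Gfap were Apobec3 and Tnr (0.98 and 0.97), and to Myoc Cidea (0.99). Grin2c, an NMDA receptor subunit second for Glul, was at 4.08 CPM in protoplasmic nuclei at E19 and at 137 CPM at P21, with 0 in fibrous nuclei at P21. Tnr was at 123 CPM in protoplasmic and 1544 in fibrous nuclei at P21. Among the 10 genes the closest pairs were Aqp4 with Myoc (0.93), Gjb6 with Etnppl (0.91), and Gfap with Aqp4 and with Myoc (0.88 each), and Gjb6 with Aldh1l1 was the most opposed (-0.68).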

How the data were processed

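RNA of single nuclei was captured on the 10x Genomics platform and processed with Cell Ranger 3.0.2 against a pre-mRNA reference of mm10, per the submitters' processing notes and the labels. The deposited matrix holds counts of UMIs, not normalised, and the authors deposited a table with the stage, class and subtype of each nucleus, its totals and its percent of mitochondrial UMIs (at most 5). Recomputed totals were identical in 9724 of 9724 nuclei. How the authors removed doublets, filtered and named nuclei, and whether counting used strand, is not given in the sources used here, and no doublet caller was run. The nuclei table has 4 further columns of values that were not used.

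UMIs were summed per library and class or subtype and scaled to 1000000. Log2 ratios added 5 CPM. A call needed a log2 ratio of at least 1 and 20 CPM at either stage. Classes needed 20 nuclei. Zero counts were limited at 3. Thinning drew 2300 UMIs per nucleus without replacement. No test was made. The 10 genes and the lists were chosen with earlier results of these data known. Named besides them were the 3 genes most alike to each by Pearson's r, and per list group the 2 largest rises and 2 largest falls, of which some are printed. Of the astrocyte marker list 1 gene is not reported here. Gene positions came from GENCODE M21 (31011 of 31053 identifiers found). Computations used Python 3.11.15, NumPy 2.4.6, SciPy 1.17.1 and pandas 2.3.3. The call step was tested on simulated counts, with changes larger than 2-fold in genes well above 20 CPM. It was not tested on smaller changes or on genes near that minimum.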

Additional observations from a re-analysis of the deposited data

Results flagged for a closer look

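For 2 genes the subtypes moved in opposite directions between libraries, each beyond its own counting error. Of the 40 pairs of a gene and a step, 10 more had opposite signs in the subtypes, but with an interval that includes no change in at least 1 of them. The difference was not tested, since each subtype has 1 sum per library. From P4 to P8 the log2 ratio of Gfap was -0.68 in protoplasmic and 3.22 in fibrous astrocytes, and the P4 fibrous sum includes the 12 nuclei with ependymal or choroid markers. None of the 40 Gfap UMIs of that sum lay in these 12 nuclei. Without them its level was 242 CPM, against 1698 in fibrous nuclei at P8. From P8 to P21 the log2 ratio of Slc1a3 was 0.18 in protoplasmic and -0.55 in fibrous astrocytes, and from E19 to P21 it was 0.22 and -0.54.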

How the results depend on the processing

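Of the counts and their alternatives, 117 stayed within 1.5 times the reported count and 17 did not. Members at least 2-fold lower from E19 to P21 went from 0 to 1 with nuclei thinned to 2300 UMIs, 1 with both subtypes weighted alike, 1 without the 10% of nuclei with most other-class marker UMIs, and 2 in fibrous astrocytes only. Members at least 2-fold higher at P4 than at E19 went from 1 to 2 in protoplasmic astrocytes only. Those higher at P8 than at P4 went from 3 to 0 in protoplasmic astrocytes only, 7 in fibrous astrocytes only and 1 without the 10% of nuclei with most other-class marker UMIs. Members highest in astrocytes in all libraries went from 4 to 0 when at least 2-fold was asked. Members higher in fibrous astrocytes in all libraries went from 1 to 0 when 2-fold was asked, 0 when thinned, 0 without the nucleus with most UMIs, and 2 without the P4 library, an alternative chosen after seeing the data. Members higher in protoplasmic astrocytes went from 3 to 1 when 2-fold was asked. Listed genes at least 2-fold lower went from 7 to 14 in fibrous astrocytes only, 4 with median-of-ratios scaling and 3 at a minimum of 100 CPM.

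Alternatives were also applied to each gene's log2 ratio from E19 to P21 and its P21 share of nuclei with a UMI. Of these, 94 stayed within the interval of the reported value, 45 moved outside it and 1 reversed. Each log2 ratio had 13 alternatives, of which 5 stayed within for Myoc, 7 for Gfap and 8 each for Aqp4 and Etnppl. For the other genes 10 to 12 did. Among the 8 genes at least 2-fold higher from E19 to P21 the direction reversed once: Glul had a log2 ratio of -1.33 in fibrous astrocytes only, on 12 and 5 UMIs. Slc1a3, at 0.21, also changed sign, to -0.54 in fibrous astrocytes only and -0.017 with both subtypes weighted alike. Myoc ranged from 0.81 in protoplasmic to 8.93 in fibrous astrocytes. The cause of these changes was not tested. No paired analysis was possible because each stage has 1 library. Depth limits small sums: 3 counts equal 13.2 to 15.7 CPM in fibrous astrocytes and 27.0 to 41.3 CPM in microglia from P4 on. Leaving out astrocyte nuclei with over 40 UMIs of Ttr beside the marked ones, an alternative chosen after seeing the data, kept each count within 1.5 times.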
